A study of Macaca fascicularis with 3 samples.

Results

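The 10 genes described here are the retinoic acid receptors RARA, RARB, RARG and RXRA, the carriers CRABP1, CRABP2 and RBP4, the retinol transporter STRA6, and the retinoid enzymes DHRS3 and ALDH1A1. They were chosen by symbol among the 26017 monkey features of the count tables, and all 10 were found. RNA was measured in single cells of xenogeneic reconstituted ovaries, in which germ cells made from the cynomolgus monkey embryonic stem cell line 15XRi-AGVT#7 were grown in aggregates with somatic cells of mouse fetal ovaries. This line carries the reporters TFAP2C-EGFP and DDX4-tdTomato, is labelled wildtype and was the only line used, and every library is labelled ag49+52 and "Early oogonia". Live germ cells positive for either reporter were sorted, as were mouse cells negative for both, and the fractions were mixed back before loading, so the sort and the mixing set how many of each were sequenced. The 3 libraries differ in the age of the mouse cells: 1 was made with ovaries of embryonic stage E13.5, 1 with E14.5 and 1 with E15.5. Wherever 3 values are given in a row below, they are the libraries in that order.

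Retinoic acid is made from vitamin A. Retinol travels in blood bound to RBP4, enters some cells through STRA6, is oxidised to retinal, and is then oxidised to retinoic acid by the ALDH1A enzymes, while DHRS3 turns retinal back into retinol and CYP26 enzymes degrade retinoic acid. Inside the cell CRABP1 and CRABP2 bind retinoic acid, and CRABP2 is known to pass it to nuclear receptors, which are pairs of a RAR and an RXR that sit on DNA. In the fetal ovary this signal is known for inducing STRA8, a gene needed for the start of meiosis, and RARB, CYP26A1 and several HOX genes are textbook targets that retinoic acid induces.

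The tables held 7827 barcodes with 44762884 UMIs (unique molecular identifiers, 1 per captured RNA molecule), 30607553 and 70850640. Barcodes with 2 to 20% of UMIs in the 13 mitochondrial protein genes and at least 10000 UMIs were taken as germ cells (537, 536 and 1113, with median depths of 55620, 43003 and 48553 UMIs). Barcodes under 1% with at least 1000 UMIs were taken as mouse cells (1643, 717 and 1739), whose median depths were 6457, 6699 and 5325 UMIs. The germ markers DDX4 and DAZL lay between 116 and 417 CPM (UMIs of a gene over all UMIs of the summed cells, scaled to the usual common total) in germ cells and between 2.34 and 16.5 CPM in mouse barcodes. Germ cells were split by 1 gene each. SYCE3-high cells (130) had SYCE3, a gene of the synaptonemal complex of meiotic chromosomes, at or above its 94th percentile of 452 CPM. STRA8-positive cells (497) had at least 2 UMIs and 50 CPM of STRA8, POU5F1-high cells (395) had at least 500 CPM of this pluripotency gene, and 1160 cells passed no such value and are called ungated. The early germ genes TFAP2C and NANOS3 marked the POU5F1-high cells, with TFAP2C at 108 to 142 CPM there and at 14.6 CPM or less in the other states, and SYCP3 reached 986 to 1508 CPM in SYCE3-high cells. The cells labelled early oogonia thus spanned states with early germ genes and states with meiotic genes.

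Of the barcode sequences, 686 occurred in more than 1 library, and 669 germ cells carried such a barcode. In no pair of libraries was a shared barcode a germ cell in both. They were spread unevenly: 54 of 65 SYCE3-high cells of E15.5 and 27 of 33 of E13.5 had one, against 3 of 216 and 1 of 56 POU5F1-high cells. In E13.5 they were also carried by 80 of 137 STRA8-positive and 159 of 311 ungated cells, and in E15.5 by 99 of 273 and 187 of 556. Without them RBP4 moved: in STRA8-positive cells it was then 16.0, 10.9 and 17.4 CPM in place of 16.7, 15.1 and 32.2 CPM, and in ungated cells 3.34, 8.59 and 10.2 CPM in place of 11.6, 11.6 and 20.1 CPM. Values without these cells are given below wherever they alter a result. Mouse RNA is seen only where its reads map to a monkey gene, so levels in mouse and germ barcodes are not compared by a test.

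The receptor RNAs rose together from POU5F1-high to STRA8-positive cells. RARB, the receptor that is itself a target of retinoic acid, was 4.86, 1.45 and 2.13 CPM in the 3 libraries of POU5F1-high cells and 40.7, 47.2 and 41.4 CPM in the STRA8-positive cells. Every STRA8-positive value lay far above every POU5F1-high one. The log2 fold change was 3.56 ± 0.21 (SE from the fit of 12 sums in 3 libraries, edgeR adjusted p 2.069e-11). RARA, the most widely expressed RAR across tissues, was 21.0, 18.1 and 22.8 CPM in POU5F1-high cells and 69.6, 64.1 and 60.7 CPM in STRA8-positive cells, again without overlap. Its log2 fold change was 1.06 ± 0.12 (edgeR adjusted p 1.777e-07). RXRA, the shared partner of the RARs, was 8.63, 6.29 and 7.06 CPM and then 28.0, 29.3 and 34.4 CPM, a change of 1.57 ± 0.18 (edgeR adjusted p 1.693e-07). RARG, the third RAR, showed the smallest rise of the 4, from 12.9, 7.90 and 11.2 to 24.5, 22.8 and 25.9 CPM, with a log2 fold change of 0.65 ± 0.14 (edgeR adjusted p 0.0003473). All 4 receptors were higher in STRA8-positive cells in 3 of 3 libraries. The share of all genes with this direction, or without overlap, was not counted in this contrast. CPM are scaled by total UMIs, under which the median log2 fold change of all genes was 0.59, against 0.044 with the scaling of the fit.

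**Figure D1:**
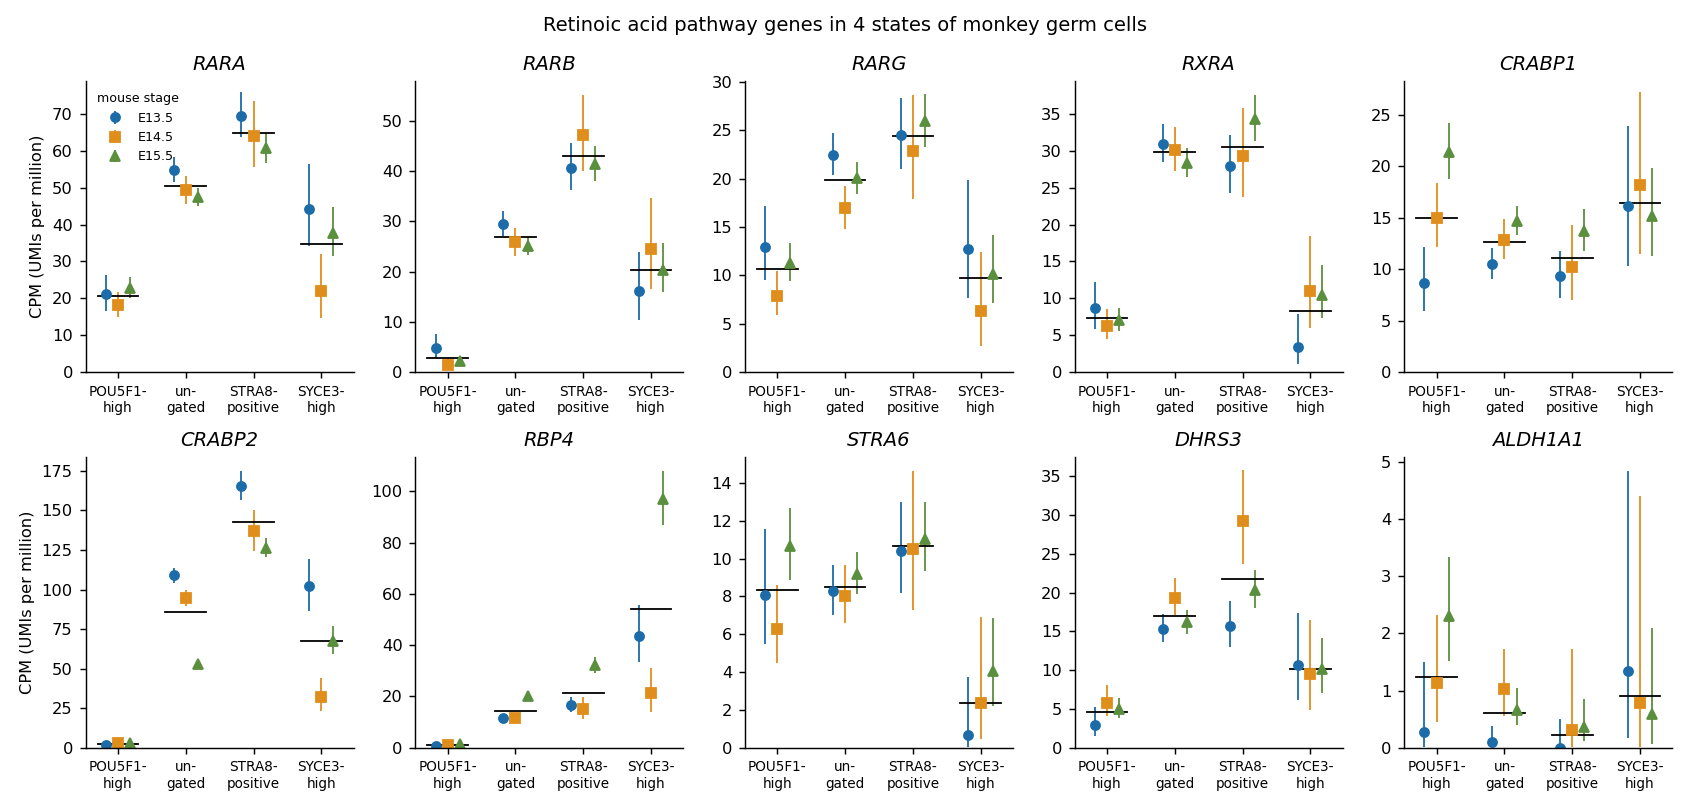
Level of each of the 10 genes in 4 states of monkey germ cells, in CPM of the summed cells of a library (linear axes from 0, a different scale per gene). Points are the 3 libraries, bars their 95% exact Poisson intervals (counting error only) and black lines the mean of the 3; RARB, CRABP2 and RBP4 were all below 5 CPM in POU5F1-high cells, and CRABP2 reached 127 to 166 CPM in STRA8-positive cells.

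CRABP2 had the largest change of the group. It was 1.62, 2.74 and 3.15 CPM in POU5F1-high cells, which rests on 6, 17 and 37 UMIs, and 166, 137 and 127 CPM in STRA8-positive cells. The log2 fold change of 5.05 ± 0.28 stands for 33.1-fold (edgeR adjusted p 6.833e-12). A CRABP2 UMI was found in 86.9%, 85.1% and 85.3% of STRA8-positive cells, and in 8.93%, 2.44% and 5.09% of POU5F1-high cells. With every cell thinned to 10000 UMIs these shares were 65.0%, 58.6% and 56.8%, and 3.57%, 1.63% and 2.31%. In mouse barcodes 1.58%, 1.67% and 2.01% had one at their lower depth, and 0.125%, 0.578% and 0.706% when thinned to 2000 UMIs. These are not a background for germ cells, since mouse reads may not map and the depths differ. The other carrier of retinoic acid did not share this pattern: CRABP1 was 8.63, 15.0 and 21.4 CPM in POU5F1-high cells and 9.29, 10.2 and 13.7 CPM in STRA8-positive cells. Those values overlap, and the STRA8-positive cells were higher in E13.5 and lower in the other libraries. CRABP1 was nonetheless called lower, with a log2 fold change of -1.01 ± 0.18 (edgeR adjusted p 5.965e-05), or -0.46 (edgeR adjusted p 0.02588) when counts were scaled by total UMIs.

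RBP4, the retinol carrier of blood, rose as well. It was 0.540, 1.13 and 1.28 CPM in POU5F1-high cells, from 2, 7 and 15 UMIs, and 16.7, 15.1 and 32.2 CPM in STRA8-positive cells, a log2 fold change of 3.91 ± 0.30 (edgeR adjusted p 7.659e-10). DHRS3, which limits the supply of retinal, was 2.97, 5.81 and 5.02 CPM and then 15.7, 29.3 and 20.3 CPM. The groups did not overlap, and the log2 fold change was 1.59 ± 0.18 (edgeR adjusted p 1.946e-07). STRA6, the membrane receptor for RBP4, was 8.09, 6.29 and 10.6 CPM against 10.4, 10.5 and 11.0 CPM. It did not pass the test at -0.24 ± 0.19 (edgeR adjusted p 0.2716), and with total UMIs its value was 0.31, of the opposite sign.

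ALDH1A1 made up few UMIs in germ cells, 5, 23 and 53. It did not pass the filter on low counts and was not tested in the main fit. Some alternatives did test it. It was called lower in STRA8-positive than in POU5F1-high cells with DESeq2, without shared barcodes, without E13.5 and without E14.5. Its highest level among germ states was 2.30 CPM, in POU5F1-high cells of E15.5. In mouse barcodes it was 25, 24.5 and 11.6 CPM, and the part of mouse RNA in its germ cell UMIs was not tested. In STRA8-positive cells it had 0, 1 and 5 UMIs, and 0 UMIs in E13.5 allow up to 0.410 CPM (3 counts).

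In all, 7 of the 9 members tested rose from POU5F1-high to STRA8-positive cells, 1 fell and 1 did not pass, where 69.7% of the 15287 genes tested passed in either direction. Their median log2 fold change was 1.57, against 0.044 for all genes tested. This contrast depends on the scaling. The median of all genes moved up by 0.55 on the log2 scale with total UMIs in place of TMM (a scaling that sets most genes level between sums). With total UMIs the counts of members were again 7 and 1, but 9032 of all 15287 genes then rose and 2590 fell. In the main fit 5463 rose and 5193 fell. RNA of somatic markers differed between the states. The summed supporting cell markers were 59.5 to 76.8 CPM in POU5F1-high and 178 to 186 CPM in STRA8-positive cells. In mouse barcodes they were 2783 to 3190 CPM. The summed stromal markers went from 15.1 to 47.1 CPM up to 79.1 to 140.0 CPM (2524 to 3471 CPM in mouse barcodes), and those of the surface epithelium from 18.3 to 34.5 CPM up to 166 to 245 CPM, which is within their range in mouse barcodes (160 to 427 CPM). In the 6 sums of these states 0 or 1 of the 10 supporting, 2 or 3 of the 10 stromal and 0 to 2 of the 6 surface markers were at 0. The summed endothelial markers went the other way, from 55.3 to 63.7 CPM down to 11.9 to 14.9 CPM. They were 4.33 to 11.0 CPM in mouse barcodes. Whether germ cells make any of these marker RNAs was not tested. AMHR2, a defining gene of supporting cells, stood at 0.374 to 1.17% of its mouse level in POU5F1-high cells and at 1.48 to 3.81% in STRA8-positive cells. Scaled by AMHR2 or by WNT4 alone, mouse RNA would bring up to 4.43% of RARG, 3.22% of DHRS3 and 2.61% of RARA in STRA8-positive cells, and up to 0.72% of the RARB, RXRA, CRABP1, CRABP2, RBP4 and STRA6 there. For ALDH1A1 it would bring 18.5 to 286% (AMHR2) or 13.1 to 180% (WNT4) of the level in all germ cells of a library. The summed supporting markers stood higher, at 5.82 to 6.61% of their mouse level in STRA8-positive and 1.97 to 2.76% in POU5F1-high cells, and would give larger shares. The part of mouse RNA in the result was not tested beyond these values.

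**Figure D2:**
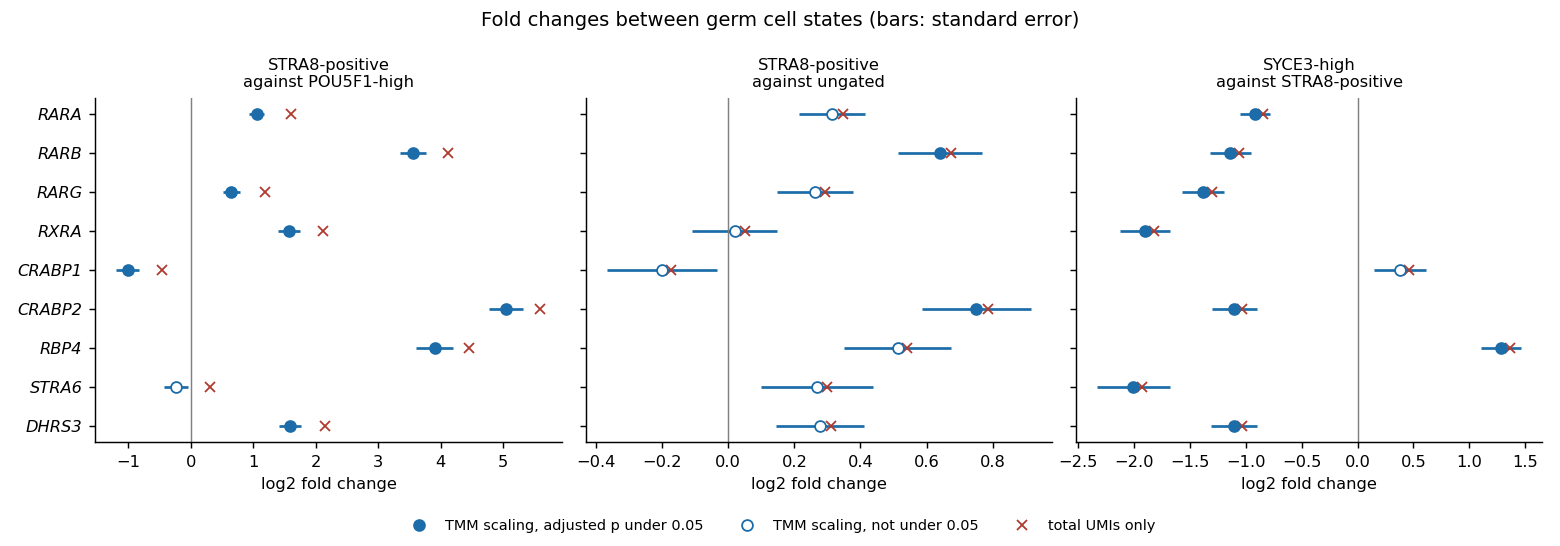
Log2 fold changes of the 9 members tested in 3 contrasts of germ cell states (x axes differ in range), with standard errors over the 12 sums of the fit; filled points passed an adjusted p of 0.05 and crosses give the value with total UMIs in place of TMM. CRABP2, RBP4 and RARB lie farthest right in the first contrast, and STRA6 and RXRA farthest left in the last.

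STRA8-positive cells were also compared with ungated cells, the germ cells that passed none of the values that define the states. RARB and CRABP2 were higher in the STRA8-positive cells. RARB was 29.5, 25.8 and 25.1 CPM in the ungated cells, below the 40.7 to 47.2 CPM of STRA8-positive cells (log2 fold change 0.64 ± 0.13, edgeR adjusted p 0.004364, 3 of 3 libraries). CRABP2 was 109, 94.6 and 53.0 CPM in ungated cells and 166, 137 and 127 CPM in STRA8-positive cells (0.75 ± 0.16, edgeR adjusted p 0.00825, 3 of 3 libraries). The other 7 members tested did not pass, with RARA at 0.31 ± 0.10 (edgeR adjusted p 0.05652) and RBP4 at 0.51 ± 0.16 (edgeR adjusted p 0.0567) nearest to it. Each of these 2 was called in 7 of the 17 alternatives. Without cells with a shared barcode both were called, RARA at 0.34 and RBP4 at 0.92, beside RARB and CRABP2. RXRA was the nearest to 0, with 31.0, 30.2 and 28.3 CPM in ungated cells and a log2 fold change of 0.019 (edgeR adjusted p 0.9576). The 2 of 9 called stand beside 7.91% of all genes called. Both calls were lost without the library as a block (0.64 for RARB and 0.70 for CRABP2) and without the E15.5 library (0.60 and 0.51), and that of CRABP2 also with DESeq2 (0.72). Of the cells near the STRA8 value of 50 CPM, 187 lay up to 1.5 times above it and 195 down to 1.5 times below. At the depth of these cells 50 CPM is only a few UMIs. These counts therefore cannot tell a range of STRA8 levels from a separate type.

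Among cells that were neither POU5F1-high nor SYCE3-high, RARB rose with the STRA8 level in every library. CRABP2 and RARA were higher in the highest STRA8 bin than in cells without STRA8, and RXRA had no common order over the libraries. Cells were binned by STRA8 at 0, above 0 to 50, 50 to 100, and 100 CPM or more. In E15.5, CRABP2 was 41.4, 62.1, 104 and 158 CPM over these bins. In E13.5 it was 79.1, 132, 166 and 164 CPM, level over the upper bins, and in E14.5 it was 67.5, 127, 107 and 172 CPM, with a dip between 50 and 100 CPM. RARB was higher in each bin than in the one before in all 3 libraries, from 23.0 to 45.3 CPM in E13.5, from 23.7 to 52.4 CPM in E14.5 and from 20.7 to 42.6 CPM in E15.5. RARA went from 48.0, 43.8 and 42.5 CPM in cells without a STRA8 UMI to 82.3, 65.5 and 65.0 CPM at 100 CPM or more. RXRA stayed between 25 and 35.8 CPM in all 12 bins. Low STRA8 depends on depth, since median depths ran from 33236.5 to 61118 UMIs between bins, and no test was made over them.

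**Figure D3:**
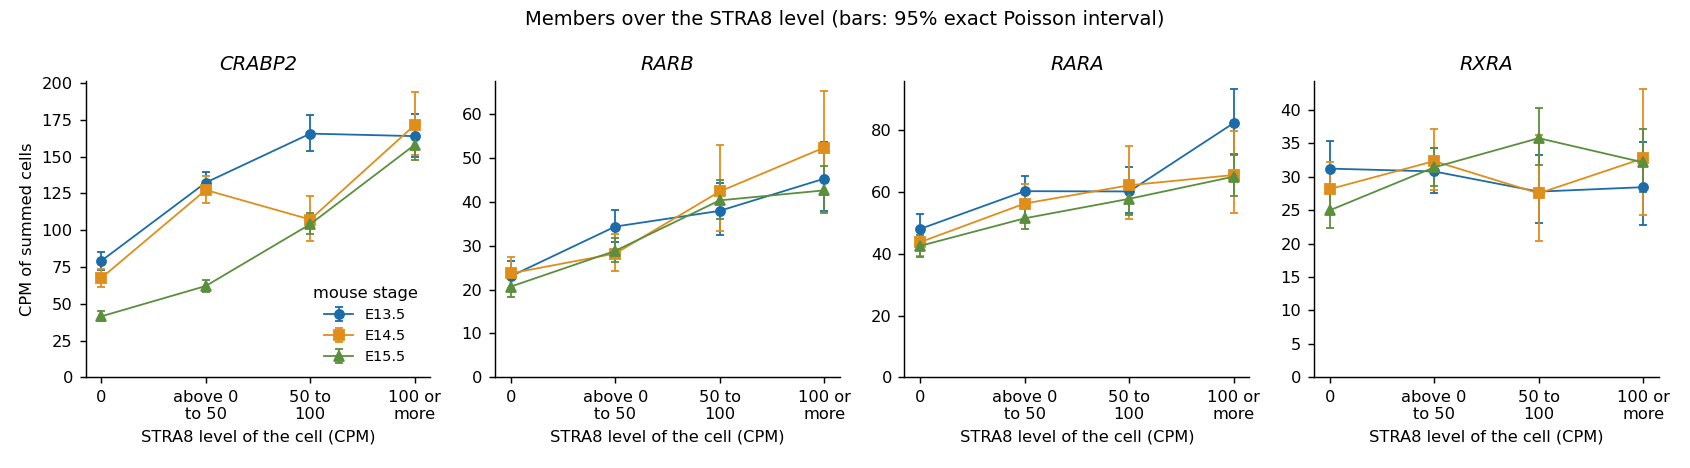
CRABP2, RARB, RARA and RXRA (y axes, CPM of the summed cells, from 0) over 4 bins of the STRA8 level of the cell (x axes, CPM), 1 line per library with 95% exact Poisson intervals that cover counting error only. RARB is higher in each next bin in every library, while RXRA stays between 25 and 35.8 CPM.

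In SYCE3-high cells the receptors were lower than in STRA8-positive cells and RBP4 was higher. RXRA was 3.35, 11.0 and 10.5 CPM in the SYCE3-high cells, below the 28.0 to 34.4 CPM of STRA8-positive cells. It fell by 1.90 on the log2 scale (SE 0.23, edgeR adjusted p 1.08e-06). RARG was 12.7, 6.31 and 10.2 CPM (log2 fold change -1.38 ± 0.18, edgeR adjusted p 4.327e-06). RARB was 16.1, 24.4 and 20.4 CPM (-1.14 ± 0.18, edgeR adjusted p 3.951e-05), still above its POU5F1-high values. RARA was 44.3, 22.1 and 37.8 CPM (-0.92 ± 0.14, edgeR adjusted p 1.501e-05), and its E14.5 value lay among those of POU5F1-high cells. For each of these 4 receptors every SYCE3-high library was below every STRA8-positive one. The share of all genes for which this holds was not counted.

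CRABP2 was 102, 32.3 and 67.8 CPM in SYCE3-high cells, a spread of more than 3-fold between libraries, and fell by 1.10 (SE 0.20, edgeR adjusted p 0.000142). STRA6 had 0.671, 2.37 and 4.07 CPM and fell by 2.01 (SE 0.32, edgeR adjusted p 3.794e-05), and DHRS3 had 10.7, 9.46 and 10.2 CPM and fell by 1.11 (SE 0.21, edgeR adjusted p 0.0001767). RBP4 was the 1 member that rose: it was 43.6, 21.3 and 97.2 CPM in SYCE3-high cells against 16.7, 15.1 and 32.2 CPM in STRA8-positive cells. It was higher in 3 of 3 libraries, although the 2 groups overlap, with a log2 fold change of 1.29 ± 0.18 (edgeR adjusted p 6.55e-06). An RBP4 UMI was found in 42.4%, 25% and 69.2% of SYCE3-high cells and in 27.7%, 25.3% and 42.5% of STRA8-positive cells, and after thinning in 27.3%, 15.6% and 35.4% and in 10.2%, 12.6% and 20.9%. CRABP1 was 16.1, 18.1 and 15.1 CPM, above its STRA8-positive value in 3 of 3 libraries, and did not pass the test (0.38 ± 0.23, edgeR adjusted p 0.1709).

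So 1 member rose, 7 fell and 1 did not pass between STRA8-positive and SYCE3-high cells, where 53.5% of all genes passed in either direction. Without germ cells whose barcode occurs in another library, only E14.5 had the 20 SYCE3-high cells that the fit asks for (23, against 6 in E13.5 and 11 in E15.5). In that fit RARA, RXRA and CRABP2 were again lower. RARB was at -0.15, RARG at -1.28, STRA6 at -1.43, DHRS3 at -0.82 and RBP4 at 0.75 on the log2 scale. With 1 SYCE3-high library, that fit cannot test whether the calls of the main fit hold. The lone SYCE3-high library is there assumed to vary like the other states. Among the cells left, RBP4 was 12.3, 26.1 and 154.9 CPM, from 2, 20 and 45 UMIs, and RARB was 24.7, 40.4 and 17.2 CPM. The 9 SYCE3-high cells of E14.5 with a shared barcode had 0 UMIs of RARB. In SYCE3-high cells the mouse RNA scaled by AMHR2 or WNT4 reached 17.0% of RARG in E15.5 and up to 5.41% of the other members tested.

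Over the 4 states, RARA, RARB, RARG, CRABP2 and STRA6 had their highest mean in STRA8-positive cells (64.8 ± 4.48, 43.1 ± 3.54, 24.4 ± 1.56, 143 ± 20.3 and 10.6 ± 0.36 CPM, SD, n = 3 libraries). For each, the STRA8-positive and ungated values did not overlap, but only RARB and CRABP2 passed the test between these states. The share of all genes without such overlap was not counted. DHRS3 was also highest in STRA8-positive cells, at 21.8 ± 6.90 CPM, but overlapped its ungated values. RXRA was 30.6 ± 3.37 CPM in STRA8-positive and 29.8 ± 1.35 CPM in ungated cells, which do not differ beyond their spread. RBP4 had its highest mean in SYCE3-high cells, at 54.0 ± 39.0 CPM, a spread nearly as large as the mean. These levels are means over libraries that differ in mouse stage. The genes whose log2(CPM + 1) was most like that of a member over the 12 sums of library and state, among 7278 genes at a mean of 20 CPM or more, were FSTL1 for RARA (Pearson r 0.99), KDM1B for RARB (0.99), SLC39A11 for RARG (0.98), C11H12orf49 for RXRA (0.98), CTNNAL1 for CRABP2 (0.99), CRYL1 for RBP4 (0.99) and CHMP2A for DHRS3 (0.98). CRABP1 had no such close partner, with RCE1 the nearest at 0.81. The sums of 1 library share its depth and preparation, and these correlations are a description.

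Other genes of the pathway were taken from a list of 50, of which 34 passed the filter. From POU5F1-high to STRA8-positive cells 14 rose and 7 fell, with a median log2 fold change of 0.33. Those called were 61.8% of the list, below the 69.7% of all genes. NR2F1 (3.66) and NR2F2 (2.72), orphan nuclear receptors that retinoic acid can induce, and RDH10 (2.51), which makes retinal from retinol, rose most among those called. NR2F2 is also on the list of stromal markers, and the part of mouse RNA in its value was not tested. FABP5, a carrier that can deliver retinoic acid to another receptor, PPARD, fell by 1.85, from 1997 ± 258 to 806 ± 17.7 CPM, HDAC3, a corepressor enzyme, by 1.61, and MED1, a coactivator subunit, by 0.63. With total UMIs the counts were 25 and 2 (9032 and 2590 of all 15287 genes), and of the 7 that fell only FABP5 (-1.30) and HDAC3 (-1.07) were still called, while MED1 was at -0.082.

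Between ungated and STRA8-positive cells 3 of the 34 passed, all higher, which is 8.82% of the list beside 7.91% of all genes. Among them were CYP26A1, the enzyme that degrades retinoic acid, at 0.82 ± 0.15 (edgeR adjusted p 0.002003), and NR2F1 at 0.70. All 3 calls were lost without E15.5 and without the library as a block. From STRA8-positive to SYCE3-high cells 6 rose and 10 fell, 47.1% of the list beside 53.5% of all genes. Without cells with a shared barcode 1 SYCE3-high library was left, so only log2 fold changes of that fit are given. BCO2, which cleaves carotenoids, had the largest value (3.63) but was only 2.49 ± 0.81 CPM. ALDH1A2, the main retinoic acid-making enzyme of many embryonic tissues, rose by 2.47 ± 0.36 (edgeR adjusted p 1.27e-05), from 1.27 ± 0.69 to 8.90 ± 3.73 CPM. CYP26B1, another degrading enzyme, rose by 1.34 at 4.44 ± 0.97 CPM. RDH13 fell by 1.12 and the corepressor subunit gene TBL1XR1 by 0.96. Without the shared barcodes BCO2 was not tested. The values were then 2.29 for ALDH1A2, 0.26 for CYP26B1, -1.04 for RDH13 and -0.76 for TBL1XR1. With 1 SYCE3-high library, that fit cannot test whether the calls above hold. In mouse barcodes ALDH1A2 was 120, 115 and 109 CPM, so at AMHR2's share of 1.72 to 3.998% mouse RNA would come to a few CPM, and its part in the ALDH1A2 value was not tested.

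Another list held 25 genes taken as responsive to retinoic acid. It mixes HOX genes with genes of meiosis and oogenic fate, such as REC8 and ZGLP1. STRA8 is on this list too and was left out of the tests, but it defines the STRA8-positive cells. How far that choice of cells sets the shares called below was not tested. Whether each responds to retinoic acid in these cells was not tested. Of the 25, 18 were tested between states. In STRA8-positive cells 15 rose and 1, RAI14, fell relative to POU5F1-high cells (with total UMIs 17 passed, all higher), and 9 passed relative to ungated cells, all higher. Those called were 88.9% and 50% of the 18, beside 69.7% and 7.91% of all genes, and under total UMIs 9032 of all genes rose in the first contrast. The 9 became 3 without E15.5 and 4 without the library as a block. HOXB5 (5.77), HOXB2 (4.81) and HOXA3 (4.60), which pattern the body axis, had the largest values in the first contrast, with HOXB5 at 95 ± 13.6 against 1.06 ± 0.46 CPM. REC8, a meiotic cohesin gene, was 228 ± 19.7 CPM in STRA8-positive and 77.4 ± 15.6 CPM in ungated cells (log2 fold change 1.53 ± 0.10, edgeR adjusted p 7.004e-08). In SYCE3-high cells 13 of the 18 passed, all lower, relative to STRA8-positive cells, led by ZGLP1, a regulator of oogenic fate, which fell by 3.14, from 70.7 ± 10.6 to 6.64 ± 5.03 CPM. The 13 are 72.2% of the list beside 53.5% of all genes. Without the shared barcodes, with 1 SYCE3-high library left, ZGLP1 fell by 4.85. CYP26A1 and NRIP1 are on both lists and count under each.

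Between libraries no test is possible, because each mouse stage has 1 library, so the stage and the library cannot be told apart. In all germ cells together RBP4 was the only member past a size rule of 2-fold or more at 20 CPM or more. It was 13, 9.86 and 23.7 CPM, and E15.5 was 2.41-fold above E14.5 (95% exact interval of the fold from counts 2.10 to 2.77, log2 ratio of CPM + 1 of 1.19). The rule was passed by 0.324% of all genes in that comparison, 0.238% in E15.5 over E13.5 and 0.498% in E14.5 over E13.5. Within states the log2 ratios of RBP4 in E15.5 over E14.5 were 0.096 in POU5F1-high, 0.75 in ungated, 1.04 in STRA8-positive and 2.14 in SYCE3-high cells. Without cells whose barcode occurs in another library RBP4 was 5.13, 7.30 and 10.1 CPM in all germ cells, so E15.5 over E14.5 was 0.43 and did not pass the rule. The ratios within states were then 0.11, 0.23, 0.63 and, from 11 and 23 cells, 2.52. Against E13.5 the STRA8-positive cells of E15.5 went from 0.91 to 0.11 in this way, so the higher RBP4 there lay in cells with a shared barcode (52.7 against 17.1 CPM in those of E13.5).

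CRABP2 was 109, 73.5 and 60.9 CPM in all germ cells, and its order by stage was not the same in each state. In ungated cells E15.5 was 0.486 of E13.5 (interval 0.454 to 0.520, log2 ratio -1.03), in STRA8-positive cells it was 0.764 of it (0.709 to 0.823), and in POU5F1-high cells the ratio was above 1 at few UMIs. In SYCE3-high cells E14.5 was the lowest, at 0.317 of E13.5 (0.219 to 0.450), but without shared barcodes CRABP2 was 43.2, 44.4 and 127 CPM there and E14.5 was not lower. The ungated log2 ratio was then -0.93. CRABP1 was higher in E15.5 in early cells: it was 8.63, 15.0 and 21.4 CPM in the POU5F1-high cells, which is 2.47-fold for E15.5 over E13.5 (1.71 to 3.70). DHRS3 was highest in E14.5 in STRA8-positive cells, at 29.3 against 15.7 CPM in E13.5 (1.86-fold, 1.40 to 2.47). In all germ cells together the log2 ratios of the receptors in E15.5 over E13.5 were -0.25 for RARA, -0.25 for RARB, -0.16 for RARG and -0.11 for RXRA, which turned to 0.17 with equal weight to each state. That of DHRS3 was 0.069.

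**Figure D4:**
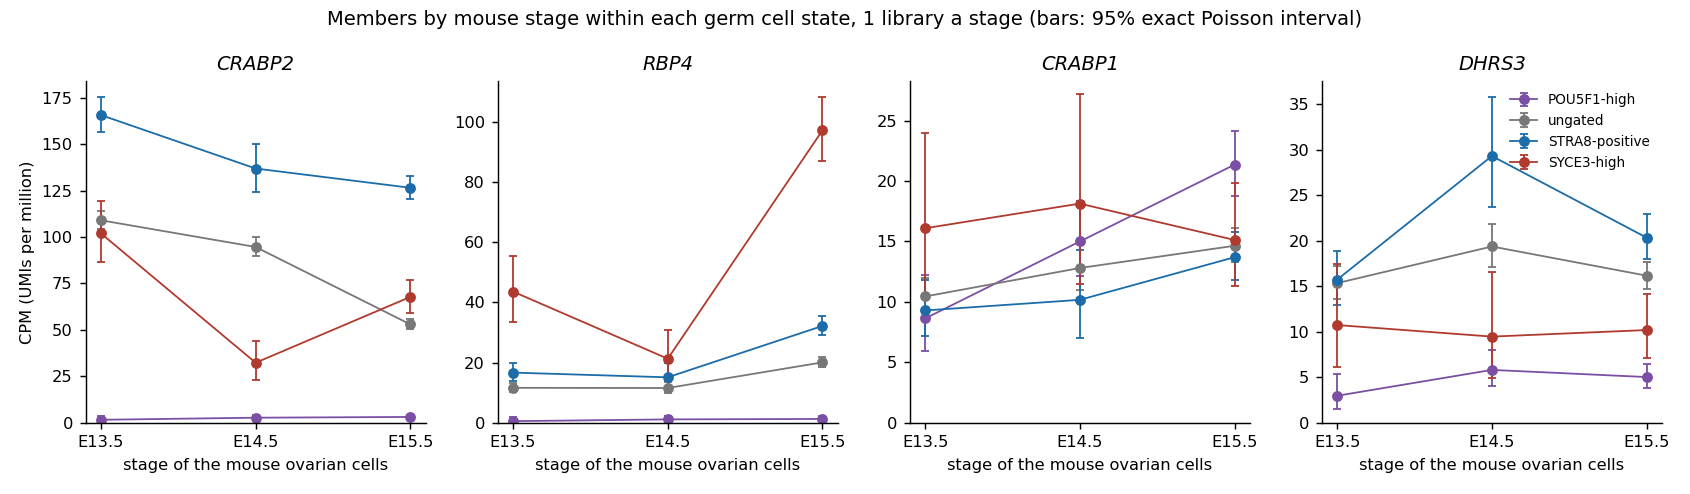
CRABP2, RBP4, CRABP1 and DHRS3 by the stage of the mouse ovarian cells (x axes, 1 library a stage) in each germ cell state, in CPM from 0 with 95% exact Poisson intervals that cover counting error only. CRABP2 in ungated cells goes from 109 to 53.0 CPM, and RBP4 is highest in E15.5 in every state.

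In the mouse barcodes, 4 members were at 10 CPM or more in every library: RARA (45.1, 44.0 and 30.8 CPM), RARG (31.4, 26.5 and 43.3 CPM), DHRS3 (19.4, 14.1 and 13.8 CPM) and ALDH1A1 (25, 24.5 and 11.6 CPM). RARB, RXRA, CRABP1, CRABP2, RBP4 and STRA6 lay between 0.086 and 4.69 CPM. A low value there can mean little RNA or mouse reads that do not map to the monkey gene, which cannot be told apart. The germ genes DDX4 and DAZL stood in mouse barcodes at 2.03 to 4.66% of their germ level and CRABP2 at 2.20 to 5.63%, and the part of germ cell RNA in these values was not tested. ALDH1A1 was the only member past the size rule in mouse barcodes: E15.5 was 0.464 of E13.5 (0.375 to 0.572) and 0.473 of E14.5 (0.369 to 0.605). That rule was passed by 2.39% and 6.2% of genes in these comparisons, and by 3.71% in E14.5 over E13.5.

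Each of the 4099 mouse barcodes was assigned to the marker list that stood highest in it relative to that list's mean CPM over all mouse barcodes. This gave 1835 led by supporting, 1367 by stromal and 594 by surface epithelial markers. The other 303 had fewer than 3 UMIs of their leading list. ALDH1A1, an enzyme that makes retinoic acid, was 29.9, 29.1 and 12.3 CPM in supporting-led, 57.0, 34.1 and 20.01 CPM in surface-led and 1.75, 2.02 and 0.422 CPM in stromal-led barcodes. Every stromal value was below every other one. ALDH1A2 had the same order of classes, at 148, 116 and 117 CPM in supporting-led, 231, 163 and 160 CPM in surface-led and 9.63, 21.2 and 10.1 CPM in stromal-led barcodes. RARG went the other way, with 65.4, 56.5 and 97.1 CPM in stromal-led and 17.0, 18.8 and 20.8 CPM in supporting-led barcodes. RBP4 was 15.2, 4.03 and 7.18 CPM in stromal-led and 0.160, 0 and 1.17 CPM in supporting-led barcodes, where the 0 of E14.5 allows up to 0.883 CPM. CYP26B1 was 15.2, 24.2 and 19.0 CPM in stromal-led barcodes and at most 2.78 CPM in those led by the other lists. DHRS3 was 10.5, 6.05 and 6.33 CPM in stromal-led barcodes and 23.5, 15.0 and 14.8 CPM in supporting-led ones. The surface-led barcodes also held AMHR2 near its supporting level and are not a clean class.

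**Figure D5:**
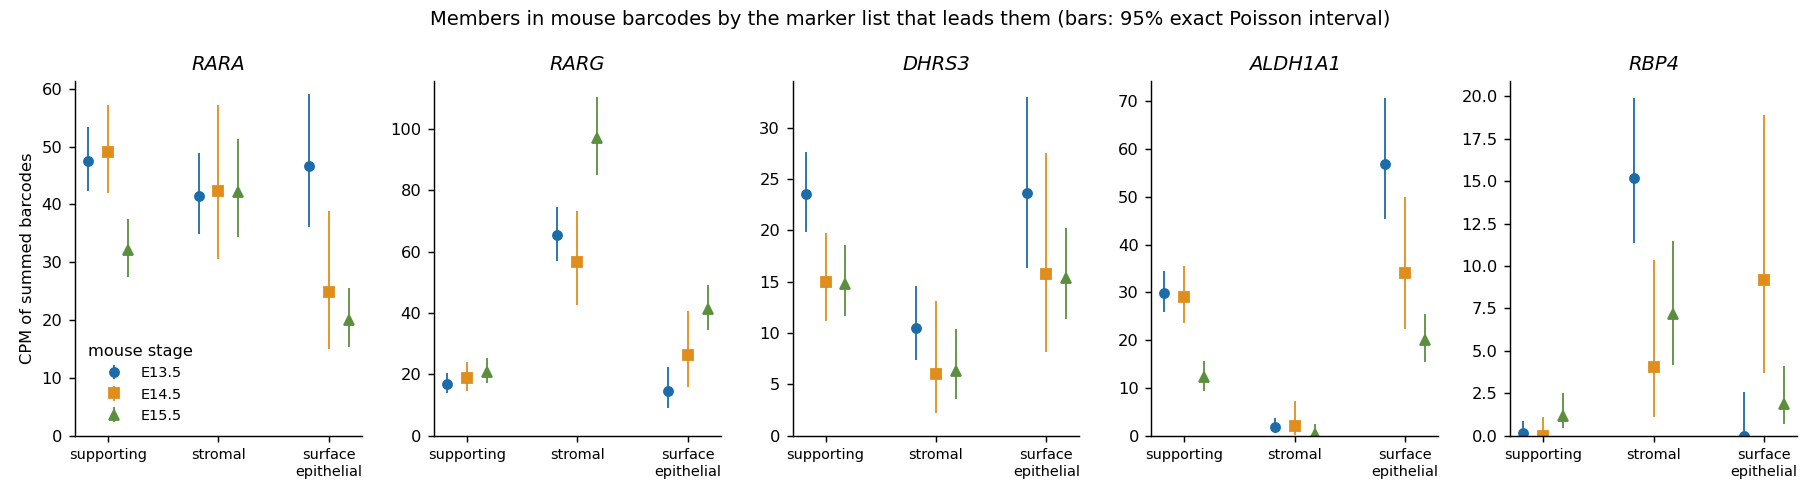
RARA, RARG, DHRS3, ALDH1A1 and RBP4 in mouse barcodes by the marker list that leads them, in CPM from 0 (a different scale per gene), with 95% exact Poisson intervals that cover counting error only. RARG is highest in stromal-led barcodes in each library, and ALDH1A1 is lowest there.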

How the data were processed

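Values are UMI counts for monkey features in each barcode, as deposited. The authors produced them using Cell Ranger 6.0.1, per the file headers. The genome build is not given in the sources used here. CPM are counts scaled by the total of the cells summed. Of 9282 LOC names, 669 were given symbols through RefSeq gene numbers (T2T-MFA8v1.1). States were compared with edgeR 4.0.16 (limma 3.58.1, R 4.3.3) on counts summed per library and state (12 sums of at least 20 cells): filterByExpr, TMM, quasi-likelihood test, library as block, Benjamini-Hochberg at 0.05, with STRA8, SYCE3 and POU5F1 left out. The libraries differ in mouse stage and may not be separate cultures. With the library as block, p-values measure only how far differences between states vary over these libraries. That spread is shared by all 4 states (6 residual degrees of freedom). All states share a library's tube and run, which is where the pairing comes from. The SE is the log2 fold change over the root of F. DESeq2 1.42.0 was an alternative, and the fit was tested on simulated data. No doublet caller was run, and 4 cells passing the POU5F1 value and another were left out. The 3 intervals used are exact Poisson, exact conditional binomial (folds) and Clopper-Pearson (shares), at 95%.

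The members, gene lists and states were chosen with earlier results of these data known. All 10 members are named, with the 3 largest changes each way on the other lists and the closest gene to each member at 10 CPM or more. One gene that this rule names is not reported here. Python 3.11.15, numpy 2.4.6, pandas 2.3.3, scipy 1.17.1 and matplotlib 3.10.9 were used.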

Additional observations from a re-analysis of the deposited data

Results flagged for a closer look

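The 1542 barcodes in neither class were not used in any comparison. RBP4 was 21.1 CPM in the 627 such barcodes of E13.5 (37 UMIs, 95% exact Poisson interval 14.8 to 29.0), above its 13 CPM in germ cells and 4.64 CPM in mouse barcodes of that library. In E14.5 these barcodes had 0 UMIs of RBP4 (interval 0 to 5.15 CPM), and in E15.5 they had 16.4 CPM against 23.7 CPM in germ cells.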

How the results depend on the processing

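Of 459 fold changes of members under alternatives, 429 kept their sign and their side of the threshold. For STRA8-positive against ungated cells the count of genes called, 1209, was 185 with no replicate block, 138 to 967 when 1 library was left out, 2081 with SYCE3 at the 97th percentile and 1941 with POU5F1 at 1000 CPM. For SYCE3-high against STRA8-positive cells, 8181 became 3414 without barcodes found in another library. The 97th percentile fit also had 1 SYCE3-high sum, E15.5. For E15.5 against E13.5 in germ cells, 18 genes became 28 at a minimum of 10 CPM and 11 without those barcodes, and the 19 higher and 18 lower genes of E14.5 against E13.5 became 27 and 13 with TMM, 30 and 13 with DESeq2 size factors and 9 and 24 with equal weight to each state. The sign changed for values near 0: STRA6 to 0.31 (total UMIs, first contrast), RXRA in STRA8-positive against ungated cells to -0.15 without E15.5 (0.12 without E13.5), -0.0023 with STRA8 at 100 CPM and -0.0071 without the cells with most somatic RNA, CRABP1 there to 0.057 with STRA8 at 100 CPM, and CRABP1 in SYCE3-high against STRA8-positive cells to -0.54 at the 97th percentile. Between E14.5 and E13.5, RARB became 0.11 and RXRA 0.11 with equal weight to each state, and RBP4 became 0.44 without shared barcodes. Members with a UMI in 30% or more of germ cells in every library were 2 after thinning. The cause of these changes was not tested. Shared barcodes, total UMIs without TMM and mouse barcodes with germ RNA were added after the data were seen. Levels in mouse barcodes moved by less than their interval in 117 of 120 cases. The 3 that moved were CRABP1, CRABP2 and RBP4 in E14.5, without the mouse barcodes with germ RNA.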
